A study of Homo sapiens with 18 samples.

Results

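The BH3-only proteins are the members of the BCL2 family that start death through mitochondria. Counts of 8 of their genes, found by symbol among 60707 genes in the deposited count table, are described here: BCL2L11, BMF, HRK, BBC3, PMAIP1, BID, BAD and BIK. All 8 had a row, and all 8 were among the 16474 genes that passed the filter on low counts. The RNA came from Raji, a B cell line established from a Burkitt lymphoma, in which SMARCA4 (also BRG1, the ATPase of the BAF chromatin remodelling complexes) could be degraded through an auxin-inducible degron, and the study asked how expression changes when the protein is lost. There were 6 groups of 3 libraries each, GFP low and GFP high cells at 24, 48 and 72 h, and every group carried the genotype label Smarca4+/+. The sources used here do not give the meaning of GFP, how the fractions were made, whether auxin was given to both, or from when the hours count; the column names of the unnumbered library set join GFP to BRG1. No fraction is therefore called depleted of the protein. SMARCA4 mRNA was itself higher in GFP low cells (log2 fold change 0.50 ± 0.03, 0.11 ± 0.03 and 0.20 ± 0.03 at the 3 times, the first being 0.28 once a trend of counts on gene length is taken out), which does not check the protein.

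In a healthy cell BAX and BAK1 lie inactive, and prosurvival proteins such as BCL2, BCL-XL (BCL2L1) and MCL1 hold them and the BH3-only proteins in check. BH3-only proteins share with the rest of the family only a short helix, the BH3 domain, which fits a groove on the prosurvival proteins; some also bind BAX and BAK1 directly. Once BAX and BAK1 are freed they open the outer mitochondrial membrane, cytochrome c leaves and caspases are activated. In B cells BIM, the product of BCL2L11, is known as the main activator that removes autoreactive and surplus cells, and its loss speeds MYC-driven lymphoma in mice. The genes differ in how they are switched on: BCL2L11 and BMF largely through transcription and tethering to motor complexes, BBC3 (PUMA) and PMAIP1 (NOXA) through transcription under stress, BID by cleavage and BAD by loss of phosphate. Counts of RNA reflect only the transcript side of this control.

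Libraries held 27257876 to 55419458 counts in genes. Mitochondrial transcripts took 3.48% to 3.64% of counts in GFP low libraries at 24 h, against 4.27% to 4.62% in GFP high libraries. The order was the same at 48 h (2.87% to 2.95% in GFP low, 3.63% to 3.78% in GFP high) and the opposite at 72 h (3.81% to 3.98% in GFP low, 2.67% to 2.79% in GFP high). All 7 B cell markers were expressed, with a summed level of 3648.0 to 4677.9 CPM (counts scaled to the size of the library), lower in GFP low than in GFP high libraries at 48 h (3804.8 to 3982.1 against 4250.4 to 4431.7 CPM) and 72 h (3648.0 to 3830.2 against 4150.7 to 4288.1 CPM). T cell markers summed to 22.8 to 53.5 CPM, with CD8A at 0 in every library, and were lower in GFP low than in GFP high libraries at each time (22.8 to 25.8 against 44 to 46.8 CPM at 24 h). Myeloid markers summed to 0.586 to 2.55 CPM and epithelial, kidney or fibroblast markers to 1.64 to 9.73 CPM. At 24 h both were higher in GFP low libraries, at 2.16 to 2.55 against 0.88 to 1.1 CPM and at 7.69 to 9.73 against 5.1 to 5.42 CPM, and ITGAM (log2 fold change 1.74) and COL1A1 (0.76) were called. In the epithelial, kidney or fibroblast list COL1A1 alone passed the filter on low counts, and every other gene was at 0.131 CPM or less. The part of these differences in the results below was not tested. The libraries form 3 sets named in the deposited columns (unnumbered, 1 and 2), and values per library are given in that order. Levels are CPM scaled by TMM, a factor per library that evens out composition. Separate cultures are not stated for the 3 libraries of a group, so the error behind each p-value is the spread of libraries and may be technical. In bulk RNA, fewer cells with a transcript and less transcript per cell cannot be told apart.

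The genes with more RNA in GFP low than in GFP high cells throughout were BCL2L11, BMF and HRK, and the windows of 300 bases around their transcription starts are shown to let their control regions be compared. Each is given 5′ to 3′ on the gene's own strand, from RefSeq on GRCh38.p14, with capitals for an exact match to a FOXO element (GTAAACA), an AP-1 element (TGACTCA), an E-box (CACGTG) or a CRE half-site (TGACGT) on either strand. The BCL2L11 window lies at chr2:111120664-111120963 (plus strand), BMF at chr15:40108830-40109129 (minus strand, the nearer to the annotated start of 2 windows for this gene) and HRK at chr12:116881392-116881691 (minus strand).
BCL2L11: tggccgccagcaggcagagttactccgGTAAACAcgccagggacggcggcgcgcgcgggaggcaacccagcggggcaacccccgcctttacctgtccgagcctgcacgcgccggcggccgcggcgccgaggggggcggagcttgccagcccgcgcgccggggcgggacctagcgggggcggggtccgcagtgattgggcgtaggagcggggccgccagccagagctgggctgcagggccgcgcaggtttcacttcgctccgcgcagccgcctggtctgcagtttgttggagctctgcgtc
BMF: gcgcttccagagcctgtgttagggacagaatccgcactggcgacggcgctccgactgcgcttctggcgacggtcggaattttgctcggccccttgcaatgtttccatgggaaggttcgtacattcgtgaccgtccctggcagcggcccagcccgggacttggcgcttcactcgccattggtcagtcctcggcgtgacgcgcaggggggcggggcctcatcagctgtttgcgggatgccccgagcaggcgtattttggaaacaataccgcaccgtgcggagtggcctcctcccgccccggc
HRK: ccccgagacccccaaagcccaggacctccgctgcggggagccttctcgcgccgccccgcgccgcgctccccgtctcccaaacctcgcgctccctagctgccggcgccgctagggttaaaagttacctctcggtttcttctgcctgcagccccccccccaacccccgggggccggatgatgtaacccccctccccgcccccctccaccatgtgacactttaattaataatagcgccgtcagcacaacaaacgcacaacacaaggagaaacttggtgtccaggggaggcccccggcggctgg
The BCL2L11 window held the FOXO element, beginning at position -223 from the start, a sequence held by 3.42% of the 35116 windows of this length in the table. The BMF and HRK windows held none of the 4 motifs. GC boxes (GGGCGG) were found 3 times in the BCL2L11, 2 times in the BMF and 2 times in the HRK window, against 45% of all windows with at least 1. The windows were 74.7%, 65% and 66.3% G and C.

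The window of BBC3, a member with no called difference between the fractions at any time in the plain fit, was 48% G and C, with no GC box. The BID window was alike in both (48.7% and no GC box), although BID was higher in GFP low cells at 48 and 72 h. That of BAD, also not called, was 68.3% G and C with 1 GC box. Of 5 windows for BID and 2 for BAD, only the nearest to the annotated start was examined. The BBC3 window lies at chr19:47232618-47232917 (minus strand) and is shown with the same capitals.
BBC3: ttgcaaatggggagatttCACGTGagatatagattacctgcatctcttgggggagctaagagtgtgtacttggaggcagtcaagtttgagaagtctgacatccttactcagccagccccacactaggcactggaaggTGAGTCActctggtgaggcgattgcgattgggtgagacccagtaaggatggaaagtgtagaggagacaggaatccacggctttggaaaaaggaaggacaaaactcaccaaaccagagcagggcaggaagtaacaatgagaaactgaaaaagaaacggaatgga
It held an E-box, present in 7.26% of all windows, and an AP-1 element on the opposite strand, present in 4.95%. PMAIP1 and BAD each held 1 CRE half-site (7.98% of windows), and BID held none of the motifs. Windows were found for 7 of the 8 members, and a match in letters is not a measured binding site.

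The comparison of GFP low with GFP high cells asks which death activators differ between the fractions at a given time. In the plain fit the 24 h comparison called 3 members higher and 2 lower in GFP low cells, when 57.9% of all tested genes were called (29.3% rose and 28.5% fell). At 48 h 6 members rose and none fell, against 23.8% of genes called (10.6% rose and 13.2% fell), and at 72 h again 6 rose and none fell, against 26.4% called (12.9% rose and 13.5% fell). With a trend of the counts on gene length removed, 4 members rose and none fell at 24 h, in a fit that called 9466 of the 16474 genes (5227 rose and 4239 fell). The median log2 fold change over the 8 members was -0.05 at 24 h, 0.36 at 48 h and 0.29 at 72 h, beside 0.03, -0.01 and 0.00 over all tested genes. Libraries of the fractions did not overlap for 5 members at 24 h, 7 at 48 h (BAD included) and 6 at 72 h, as for 61.8%, 36.8% and 38.8% of all tested genes. Calls are at an adjusted p under 0.05 in edgeR's quasi-likelihood test over all tested genes, and log2 fold changes are given ± SE.

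**Figure D1:**
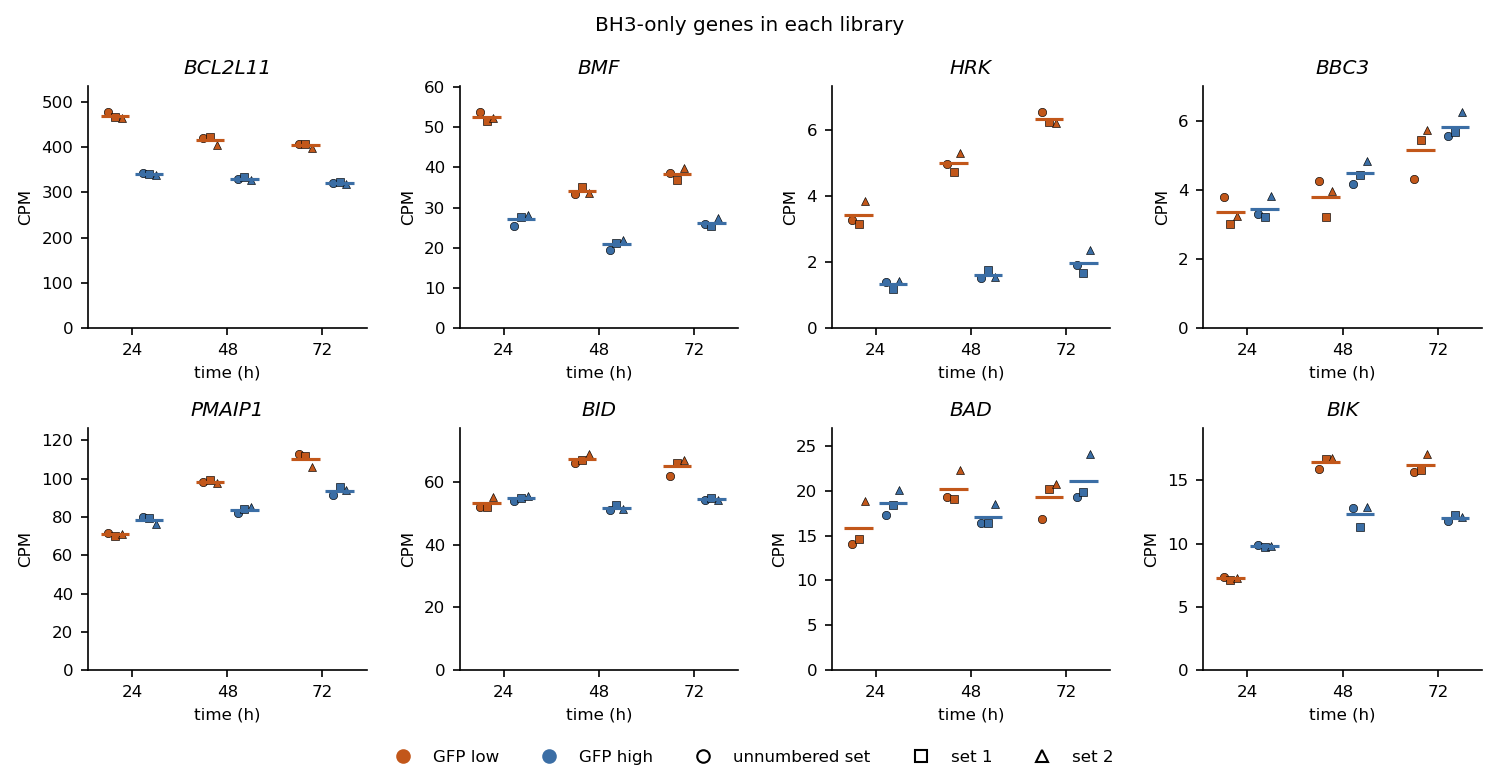
Level of each BH3-only gene in the 18 libraries, in CPM on axes that start at 0, against time in hours; points are libraries, their shape the library set, and bars the means of 3. GFP low libraries lie above all GFP high libraries at every time for BCL2L11, BMF and HRK, while PMAIP1 and BIK lie below at 24 h and above at 48 and 72 h.

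BCL2L11 encodes BIM, which binds all the main prosurvival proteins and can also act on BAX and BAK1 directly (ENSG00000153094.24, chromosome 2, 111119378 to 111168445, plus strand in hg38). At 24 h its level was 477.7, 467.1 and 463.5 CPM in GFP low cells, against 343.2, 340.6 and 337.9 CPM in GFP high cells. GFP low cells held 420.3, 422.3 and 403.9 CPM at 48 h, against 328.8, 333.8 and 326.2 CPM in GFP high cells. The level at 72 h was 407.6, 407.2 and 398.1 CPM in GFP low cells and 321.4, 323.4 and 319.2 CPM in GFP high cells. The fractions did not overlap at any time, and even the lowest GFP low library of the series lay above the highest GFP high one. The log2 fold change was 0.46 ± 0.02 at 24 h (adjusted p = 1.67e-14), 0.33 ± 0.02 at 48 h (adjusted p = 5.98e-11) and 0.33 ± 0.02 at 72 h (adjusted p = 6.26e-11). Of its exonic bases, 727 also lie in exons of MIR4435-2HG on the opposite strand and 192 in exons of ACOXL, and the strand setting of the counting is not given in the sources used here.

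BMF encodes a BH3-only protein that is held at motor complexes through a dynein light chain and is released by some stresses (ENSG00000104081.14, chromosome 15, 40087890 to 40108892, minus strand). In GFP low cells 53.8, 51.6 and 52.2 CPM were measured at 24 h, against 25.5, 27.6 and 28.2 CPM in GFP high cells. The level at 48 h was 33.4, 35.0 and 33.6 CPM in GFP low cells and 19.5, 21.2 and 21.9 CPM in GFP high cells. At 72 h its level was 38.6, 36.9 and 39.8 CPM in GFP low cells, against 26.0, 25.4 and 27.4 CPM in GFP high cells. Every GFP low library again lay above every GFP high library of any time. The log2 fold change was 0.95 ± 0.05 at 24 h (adjusted p = 7.27e-14), 0.70 ± 0.05 at 48 h (adjusted p = 4.75e-10) and 0.55 ± 0.05 at 72 h (adjusted p = 1.21e-08). The antisense gene BMF-AS1, which shares 461 exonic bases with it, had 0 to 3 counts per library.

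HRK, also called Harakiri, binds BCL2 and BCL-XL and is best known as a death activator of neurons (ENSG00000135116.9, chromosome 12, 116856144 to 116881441, minus strand). It had 41 to 278 counts per library, the fewest of the 8 genes. The level at 24 h was 3.28, 3.15 and 3.86 CPM in GFP low cells and 1.39, 1.2 and 1.44 CPM in GFP high cells. At 48 h its level was 4.97, 4.74 and 5.3 CPM in GFP low cells, against 1.52, 1.75 and 1.55 CPM in GFP high cells. GFP low cells held 6.56, 6.26 and 6.21 CPM at 72 h, against 1.92, 1.66 and 2.38 CPM in GFP high cells. No GFP low library fell within the GFP high range of any time, although the level was low in both. The log2 fold change was 1.35 ± 0.14 at 24 h (adjusted p = 1.54e-08), 1.64 ± 0.13 at 48 h (adjusted p = 2.88e-09) and 1.65 ± 0.12 at 72 h (adjusted p = 1.14e-09). These are folds of 2.55, 3.12 and 3.14, and among the 16474 tested genes HRK ranked 234th, 47th and 38th from the highest value.

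PMAIP1 encodes NOXA, which binds MCL1 and BCL2A1 and favours the breakdown of MCL1 (ENSG00000141682.12, chromosome 18, 59899996 to 59904305, plus strand). At 24 h its level was 71.4, 69.9 and 71.3 CPM in GFP low cells, against 79.8, 79.2 and 76.3 CPM in GFP high cells. In GFP low cells 98.4, 99.3 and 97.6 CPM were measured at 48 h, against 82.1, 84.0 and 85.2 CPM in GFP high cells. The level at 72 h was 112.9, 111.8 and 106.1 CPM in GFP low cells and 91.5, 95.6 and 94.0 CPM in GFP high cells. The GFP low libraries lay below the GFP high ones at 24 h and above them at the later times, without overlap. The log2 fold change was -0.14 ± 0.03 at 24 h (adjusted p = 0.000242), 0.23 ± 0.03 at 48 h (adjusted p = 2.93e-06) and 0.23 ± 0.03 at 72 h (adjusted p = 2.23e-06). The direction at 24 h turned with the correction for gene length, to 0.10 ± 0.03 (adjusted p = 0.0147), and with length and GC content corrected it was 0.19 ± 0.03 (adjusted p = 5.95e-07).

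BIK encodes a BH3-only protein of the endoplasmic reticulum membrane (ENSG00000100290.3, chromosome 22, 43110750 to 43129712, plus strand). GFP low cells held 7.39, 7.11 and 7.29 CPM at 24 h, against 9.86, 9.7 and 9.78 CPM in GFP high cells. The level at 48 h was 15.9, 16.7 and 16.8 CPM in GFP low cells and 12.8, 11.3 and 12.9 CPM in GFP high cells. At 72 h its level was 15.7, 15.8 and 17.1 CPM in GFP low cells, against 11.8, 12.3 and 12.1 CPM in GFP high cells. As for PMAIP1, the fractions did not overlap at any time and their order was the opposite at 24 h from that at the later times. The log2 fold change was -0.43 ± 0.06 at 24 h (adjusted p = 4.34e-06), 0.42 ± 0.06 at 48 h (adjusted p = 6.29e-06) and 0.43 ± 0.06 at 72 h (adjusted p = 5.28e-06). With the length trend removed the value at 24 h was -0.11 ± 0.07 and did not pass the test (adjusted p = 0.161), while with length and GC trends removed it was -0.16 ± 0.06 and passed (adjusted p = 0.0292).

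BID links death receptors to mitochondria once caspase 8 has cut it (ENSG00000015475.19, chromosome 22, 17734138 to 17774770, minus strand). The level at 24 h was 52.2, 52.0 and 55.4 CPM in GFP low cells and 54.0, 54.9 and 55.6 CPM in GFP high cells. At 48 h its level was 66.1, 67.1 and 69.0 CPM in GFP low cells, against 51.1, 52.8 and 51.5 CPM in GFP high cells. In GFP low cells 62, 66.1 and 67.1 CPM were measured at 72 h, against 54.4, 55.0 and 54.4 CPM in GFP high cells. The fractions overlapped at 24 h and were apart at 48 and 72 h. The log2 fold change was -0.04 ± 0.03 at 24 h (adjusted p = 0.29), 0.38 ± 0.03 at 48 h (adjusted p = 1.74e-08) and 0.25 ± 0.03 at 72 h (adjusted p = 5.74e-06).

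BBC3 encodes PUMA, which like BIM binds all the main prosurvival proteins (ENSG00000105327.18, chromosome 19, 47220822 to 47232766, minus strand). At 24 h its level was 3.79, 3.02 and 3.24 CPM in GFP low cells, against 3.29, 3.2 and 3.83 CPM in GFP high cells. GFP low cells held 4.24, 3.22 and 3.95 CPM at 48 h, against 4.17, 4.43 and 4.84 CPM in GFP high cells. The level at 72 h was 4.31, 5.44 and 5.73 CPM in GFP low cells and 5.56, 5.67 and 6.25 CPM in GFP high cells. The fractions overlapped at each time. The log2 fold changes of -0.05 ± 0.13, -0.24 ± 0.12 and -0.18 ± 0.12 at 24, 48 and 72 h did not pass the test (adjusted p = 0.76, 0.18 and 0.311). With length and GC trends removed the value at 72 h was -0.31 ± 0.11 and passed (adjusted p = 0.036). BBC3 had 92 to 320 counts per library.

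BAD binds BCL2, BCL-XL and BCL2L2 and is kept inactive by phosphorylation through AKT and binding to 14-3-3 proteins (ENSG00000002330.14, chromosome 11, 64269830 to 64284704, minus strand). In GFP low cells 14.1, 14.6 and 18.8 CPM were measured at 24 h, against 17.3, 18.4 and 20.1 CPM in GFP high cells. The level at 48 h was 19.3, 19.1 and 22.3 CPM in GFP low cells and 16.4, 16.4 and 18.5 CPM in GFP high cells. At 72 h its level was 16.8, 20.2 and 20.8 CPM in GFP low cells, against 19.3, 19.9 and 24.1 CPM in GFP high cells. The library of set 2 was the highest of its group in all 6 groups, and only 55.7% of the variance of its log2 level lay between groups, the lowest share of the 8 genes. The log2 fold changes of -0.22 ± 0.11, 0.24 ± 0.10 and -0.14 ± 0.10 did not pass the test (adjusted p = 0.0778, 0.102 and 0.364). With the library set as a block, which pairs the libraries, they did, at -0.21 ± 0.05 (adjusted p = 0.000336), 0.25 ± 0.05 (adjusted p = 7.67e-05) and -0.14 ± 0.05 (adjusted p = 0.0166). Without the GFP low library of set 2 the value at 24 h was -0.38 (adjusted p = 0.0048), and with the length trend removed it was 0.07 ± 0.10 (adjusted p = 0.584). With length and GC trends removed the value at 24 h was -0.09 ± 0.06 and did not pass (adjusted p = 0.208). Those at 48 h (0.22 ± 0.06, adjusted p = 0.00513) and 72 h (-0.25 ± 0.06, adjusted p = 0.00196) passed with that correction. A stretch of 404 exonic bases, 23.7% of its length, is shared with GPR137 on the opposite strand.

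The values at 24 h followed gene length. Summed exon length was 6853 bases for HRK, 6656 for BCL2L11, 5447 for BMF, 4420 for BID, 3185 for BBC3, 2186 for PMAIP1, 1708 for BAD and 951 for BIK, and the Spearman correlation of length with the log2 fold change over these 8 genes was 0.98 at 24 h, 0.45 at 48 h and 0.52 at 72 h. Over 10117 protein-coding genes it was 0.47 at 24 h, -0.03 at 48 h and 0.05 at 72 h. With the length trend of each library removed, the 3 longest members kept their differences at 24 h, with 1.29 ± 0.13 for HRK (adjusted p = 3.37e-08), 0.41 ± 0.02 for BCL2L11 (adjusted p = 9.82e-13) and 0.95 ± 0.04 for BMF (adjusted p = 4.44e-14). At 48 and 72 h no member changed its call with that correction. On the TPM scale, which weights counts by length, the median log2 ratio over all tested genes at 24 h was 0.35, against 0.03 in CPM. Relative to that median PMAIP1 (0.17), BAD (0.09), BID and BBC3 (0.28 each) and BIK (-0.11) were lower in GFP low cells, although all but BIK had a ratio above 0, and HRK (1.67), BMF (1.27) and BCL2L11 (0.78) were higher.

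**Figure D2:**
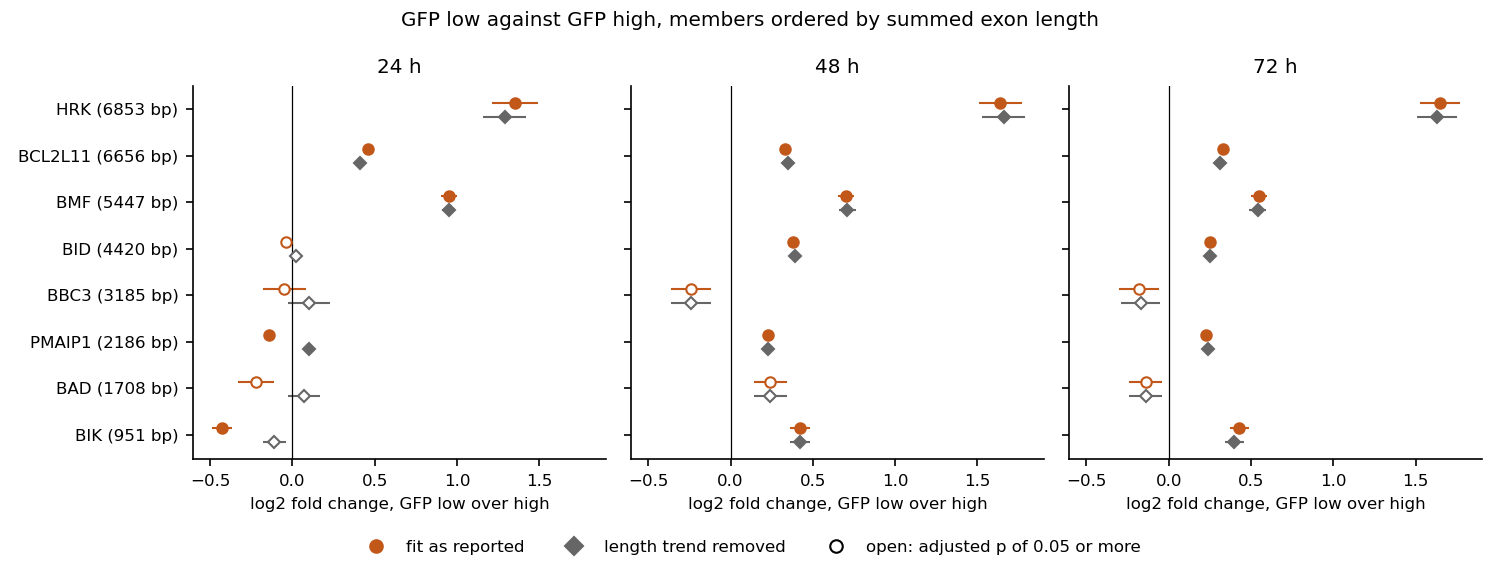
Log2 fold change of GFP low over GFP high cells at 24, 48 and 72 h, with SE, for the 8 genes ordered by summed exon length from the longest at the top; circles are the fit as reported, diamonds the fit with the length trend removed, and open symbols did not pass the test. At 24 h the circles run from 1.35 for HRK to -0.43 for BIK in nearly the order of length, and the diamonds of the 3 longest genes stay at 0.41 to 1.29.

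The fit also tested whether the GFP difference itself changed with time. Between 48 and 24 h it rose for 4 members and fell for 2, against 43.5% of all tested genes called (22.1% rose and 21.4% fell). BIK moved by 0.85 ± 0.08 (adjusted p = 2.61e-08), BID by 0.42 ± 0.05 (adjusted p = 1.68e-07), PMAIP1 by 0.38 ± 0.04 (adjusted p = 1.31e-07) and BAD by 0.47 ± 0.15 (adjusted p = 0.0146). The difference shrank for BMF (-0.25 ± 0.07, adjusted p = 0.00355) and BCL2L11 (-0.13 ± 0.03, adjusted p = 0.000835), both higher in GFP low cells at each time. With the length trend removed BIK kept 0.53 and BID 0.37, PMAIP1 kept 0.13 (adjusted p = 0.0279), and BCL2L11 (-0.05, adjusted p = 0.185) and BAD (0.17, adjusted p = 0.349) no longer passed. With length and GC trends removed both did, at -0.08 and 0.31, and PMAIP1 did not (0.07, adjusted p = 0.15). For HRK the change was 0.29 ± 0.19 and for BBC3 -0.19 ± 0.18, and neither passed.

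Between 72 and 24 h the change was called for 5 members (41.8% of all genes, 22.2% rose and 19.6% fell), with 0.86 ± 0.08 for BIK, 0.38 ± 0.04 for PMAIP1, 0.30 ± 0.05 for BID, -0.40 ± 0.07 for BMF and -0.13 ± 0.03 for BCL2L11. HRK's 0.30 ± 0.18 did not pass (adjusted p = 0.225), but did without the GFP high library of set 2 at 72 h (0.49, adjusted p = 0.0409). Between 72 and 48 h 0 of 8 members were called by edgeR, where 9.02% of all genes were (5.19% rose and 3.83% fell). At an unadjusted p under 0.05 there were 3 (BAD, BMF and BID), and DESeq2 called 0. With the library set as a block 2 passed, BID (-0.13, adjusted p = 0.0136) and BAD (-0.40, adjusted p = 3.83e-05). BID also passed without the GFP low library of set 2 at 72 h (-0.16, adjusted p = 0.0484).

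The comparisons over time within a fraction ask which side carried these changes. In GFP low cells all 8 members differed between 72 and 24 h, 6 of them higher at 72 h, against 57.1% of all tested genes called (29.6% rose and 27.5% fell). BIK was up by 1.16 ± 0.06, HRK by 0.88 ± 0.12, PMAIP1 by 0.64 ± 0.03 and BBC3 by 0.63 ± 0.13, while BMF fell by 0.45 and BCL2L11 by 0.22 on the log2 scale. With the length trend removed the change was 0.82 for BIK, 0.41 for PMAIP1 and 0.49 for BBC3. BAD (0.27 ± 0.11, adjusted p = 0.0385) was -0.01 with that correction (adjusted p = 0.928). Its call was also lost without the unnumbered (0.19) or set 1 (0.21) GFP low library of 24 h, and without the set 1 (0.24) or set 2 (0.21) GFP low library of 72 h, and the value was 0.43 without the set 2 library of 24 h.

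Between 48 and 24 h 5 members rose and 2 fell in GFP low cells (50.8% of all genes called, 25.7% rose and 25.1% fell), among them BIK at 1.18 ± 0.06 and BMF at -0.63 ± 0.04. With the length trend removed BIK had 0.90 and BMF -0.61. BAD, at 0.34 ± 0.10, lost its call without the unnumbered GFP low library of 24 h (0.27, adjusted p = 0.0614), without the set 2 library of 48 h (0.26, adjusted p = 0.066) and with the length trend removed (0.10). Between 72 and 48 h 4 members rose in GFP low cells (26.4% of all genes called, 13.9% rose and 12.5% fell), namely PMAIP1 (0.16 ± 0.03), BMF (0.18 ± 0.05), BBC3 (0.44 ± 0.12) and HRK (0.34 ± 0.11). The calls of BMF (0.14) and BBC3 (0.33) were lost without the set 2 library of 72 h, and that of BBC3 also without the set 1 library of 48 h (0.33). HRK lost its call without any 1 of the 3 libraries of 72 h or without the unnumbered or set 1 library of 48 h (0.29 to 0.34), and in DESeq2 (adjusted p = 0.071).

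In GFP high cells 5 members were called between 72 and 24 h (28.9% of all genes, 13.9% rose and 15% fell): BBC3 (0.75 ± 0.12), HRK (0.58 ± 0.14), BIK (0.30 ± 0.06) and PMAIP1 (0.26 ± 0.03) rose and BCL2L11 (-0.08 ± 0.02) fell. HRK lost the call without the set 2 library of 72 h (0.40, adjusted p = 0.0849). Between 48 and 24 h 4 were called (20.6% of all genes, 10.6% rose and 9.97% fell), BMF (-0.38 ± 0.05), BIK (0.34 ± 0.06), BBC3 (0.38 ± 0.13) and PMAIP1 (0.10 ± 0.03). The call of BBC3 was lost without the unnumbered or set 1 GFP high library of 24 h or the set 1 or set 2 library of 48 h (0.31 to 0.39), and that of PMAIP1 without the set 2 library of 24 h or the set 1 or set 2 library of 48 h (0.08 to 0.10). Both calls were also lost in DESeq2 (adjusted p = 0.0679 for BBC3 and 0.0624 for PMAIP1) and without the low-count filter. Between 72 and 48 h 4 rose (27.8% of all genes called, 13.7% rose and 14.2% fell), BMF (0.33 ± 0.05), PMAIP1 (0.16 ± 0.03), BBC3 (0.38 ± 0.12) and BAD (0.31 ± 0.11). Both BBC3 (0.31 to 0.36) and BAD (0.19 to 0.28) lost the call without the unnumbered or set 1 GFP high library of 48 h or the set 2 library of 72 h. BBC3 was thus higher at 72 than at 24 h in both fractions.

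**Figure D3:**
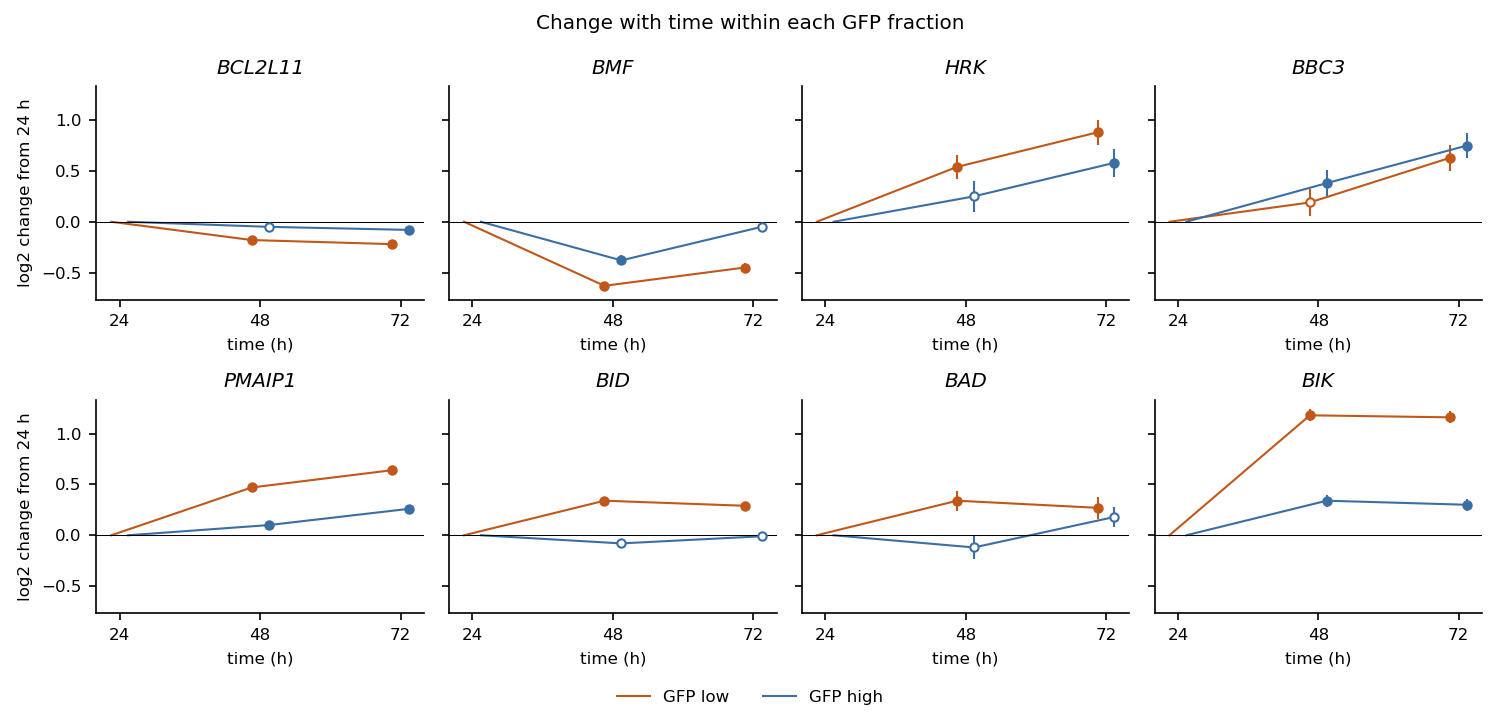
Log2 change of each gene from its own level at 24 h, with SE, in GFP low and GFP high cells at 48 and 72 h; open points did not pass the test. BIK reaches 1.18 in GFP low cells at 48 h, against 0.34 in GFP high cells, while BBC3 reaches 0.63 and 0.75 at 72 h. With the length trend removed, which is not drawn, these are 0.90 and 0.37 for BIK and 0.49 and 0.76 for BBC3.

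For comparison between genes, levels were divided by summed exon length and are CPM per kilobase. BCL2L11 stood highest, with group means of 48.3 to 70.5 CPM per kilobase, followed by PMAIP1 with 32.4 to 50.4. BIK (7.64 to 17.3), BID (11.7 to 15.2) and BAD (9.27 to 12.4) formed a middle range in which the genes overlapped. BMF followed with 3.83 to 9.65, BBC3 with 1.05 to 1.83, and HRK was lowest with 0.196 to 0.925 CPM per kilobase. HRK, with the largest fold between the fractions of the 8 genes, took the smallest share of the summed level of the 8 genes, 0.349% ± 0.035 in GFP low and 0.154% ± 0.0145 in GFP high cells at 24 h (SD, n = 3 each).

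The summed level of the 8 genes was 143.8, 140.9 and 144.6 CPM per kilobase in GFP low cells at 24 h, against 126.7, 127.1 and 126.9 in GFP high cells. At 48 h it was 159.4, 161.0 and 159.8 CPM per kilobase in GFP low cells, against 126.7, 127.5 and 129.8 in GFP high cells. At 72 h it was 162.7, 165.0 and 163.7 CPM per kilobase in GFP low cells, against 133.0, 136.1 and 137.4 in GFP high cells. The fractions did not overlap at any time, and no test was made on this sum. These levels carry no correction for the length trend at 24 h, which turned the direction of PMAIP1. At that time BCL2L11 took 49.3% ± 0.98 of it in GFP low and 40.3% ± 0.351 in GFP high cells and PMAIP1 took 22.7% ± 0.0945 and 28.3% ± 0.687 (SD, n = 3 each). By 72 h BCL2L11 took 37.1% ± 0.555 and 35.6% ± 0.711, and PMAIP1 30.8% ± 1.06 and 31.6% ± 0.448.

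**Figure D4:**
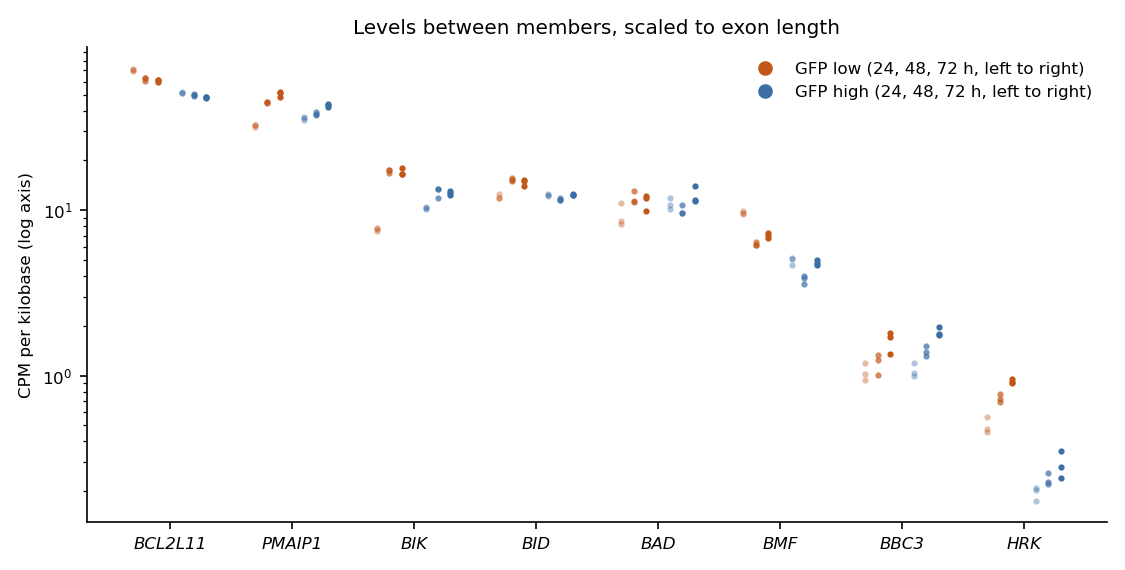
Level of each gene in CPM per kilobase of summed exon length on a log axis, 1 point per library, with the 3 times from left to right within each fraction. BCL2L11 (group means 48.3 to 70.5) and PMAIP1 (32.4 to 50.4) lie above the rest, and HRK (0.196 to 0.925) lies lowest with the widest gap between GFP low and GFP high cells.

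The order of the 6 groups separated the genes into patterns. For BCL2L11 and BMF all 3 GFP low groups stood above all 3 GFP high groups, with the highest mean in GFP low cells at 24 h, 469.4 ± 7.43 CPM and 52.5 ± 1.14 CPM (SD, n = 3). HRK shared that split but was highest in GFP low cells at 72 h, 6.34 ± 0.188 CPM. For PMAIP1 no neighbours in the order overlapped, from 110.3 ± 3.62 CPM in GFP low cells at 72 h down to 70.9 ± 0.819 CPM in GFP low cells at 24 h, so that GFP low cells held both ends in CPM. The place of GFP low below GFP high cells at 24 h turned with the length correction (0.10). BIK was likewise highest in GFP low cells at 48 h (16.5 ± 0.471 CPM), overlapping with those at 72 h, and lowest in GFP low cells at 24 h (7.27 ± 0.142 CPM). With the length trend removed its difference between the fractions at 24 h was -0.11 and did not pass. For BBC3 and BAD every pair of neighbouring groups overlapped.

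Over the 18 libraries, which share the 6 groups and the library sets, the log2 level of BCL2L11 went with that of BMF (Pearson's r = 0.93) and that of PMAIP1 with BIK (r = 0.92). The levels behind all correlations given here carry no correction for the length trend at 24 h. The first pair are long genes (6656 and 5447 bases) and the second short ones (2186 and 951 bases), and the part of length was not tested. BCL2L11 and PMAIP1 did not go together (r = -0.10). HRK lay between, with r = 0.80 to BID and 0.73 to BCL2L11. Among 10107 protein-coding genes, those most like BCL2L11 were FOXN3 (r = 0.980), RBFOX2 and NFATC2 (0.979 each). For BMF they were MYO1G (0.972), CALHM1 (0.971) and ZBTB38 (0.966), and for HRK DAB2IP (0.976), ETS1 (0.965) and SEPTIN9 (0.962). PMAIP1 was most like MID1IP1 (0.982), PPP2R5C (0.979) and SPIN1 (0.964). BIK was most like CCDC117 and CCND3 (0.946 each) and SUCLG2 (0.943), and BID like MPZL1 (0.955), NME4 (0.950) and RCSD1 (0.945). The likest genes were less close for BBC3 (WIPI1 0.922, DHCR7 0.906, CHAC1 0.904) and BAD (WDR18 0.874, DYNC2I2 and PARD6A 0.868 each).

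The proteins that BH3-only proteins bind were read beside them, from lists chosen with earlier results of these data known. Of 5 prosurvival genes tested in GFP low against GFP high cells, 2 were up and 2 down at 24 h, 1 up and 2 down at 48 h, and 1 up and 3 down at 72 h, with medians of 0.01, -0.06 and -0.12. In the same plain fit 57.9%, 23.8% and 26.4% of all tested genes were called at 24, 48 and 72 h. BCL2L2, among those up at 24 h (0.17, adjusted p = 0.0492), lost its call under RLE, without the low-count filter, in DESeq2 and without any 1 library of that time other than the unnumbered GFP high one (0.13 to 0.18). BCL2L1, not called at 48 h (0.09, adjusted p = 0.0736), was called under those 3 settings, with the library set as a block, with either trend correction and without the GFP high library of set 2 (0.08 to 0.13). BCL2 was up at each time (0.66 ± 0.04, 0.62 ± 0.04 and 0.38 ± 0.05), and its first value was 0.47 in the length-corrected fit. MCL1 and BCL2A1, the partners of NOXA, were down at each time. MCL1 had -0.25 ± 0.02 (-0.29 when corrected for length), -0.23 ± 0.02 and -0.12 ± 0.02, and BCL2A1 had -0.74 ± 0.08 (-0.43 when corrected for length), -0.65 ± 0.08 and -1.17 ± 0.08. Of the pore formers, BAX had -0.32 ± 0.04 at 24 h, or -0.11 when corrected for length (adjusted p = 0.0169). It had -0.16 ± 0.04 at 48 h, a call lost without the unnumbered GFP high library (-0.12, adjusted p = 0.0667). BAK1 had -0.35 ± 0.08 at 24 h in the plain fit, and its length-corrected -0.11 did not pass (adjusted p = 0.173), while with length and GC trends removed -0.19 did (adjusted p = 0.00158).

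Among 10 genes whose products hold, cut or mark BH3-only proteins, 3 were up and 7 down at 24 h, 1 up and 2 down at 48 h, and 1 up and 4 down at 72 h, with medians of -0.21, 0.01 and -0.01. These counts are from the plain fit, which called 57.9%, 23.8% and 26.4% of all tested genes at the 3 times. At 24 h that fit carries the length trend. At 48 h PIM2 (0.11) and YWHAZ (-0.07) both lost their calls without the GFP low library of set 2 (0.10 and -0.05), which leaves DYNLL2. PIM2 also lost it without the unnumbered GFP low (0.11) or set 1 GFP high library (0.08), and YWHAZ without the unnumbered GFP high library (-0.05), without the low-count filter (-0.06) and with the length trend removed (-0.06). At 24 h DYNLL1, the dynein light chain that tethers BIM, had -0.88 ± 0.03, and YWHAQ and YWHAZ, 14-3-3 proteins of the kind that holds BAD, had -0.61 ± 0.02 and -0.46 ± 0.02. When corrected for length the values were -0.70 for DYNLL1, -0.41 for YWHAQ and -0.59 for YWHAZ. HUWE1, a ubiquitin ligase for MCL1, had 0.53 ± 0.02, or 0.31 when corrected for length. Its direction was the opposite at 72 h, with 752.7 CPM in GFP low against 849.9 CPM in GFP high cells (-0.16 when corrected for length). DYNLL2, the light chain that holds BMF, had -0.24 ± 0.03 at 48 h. Further down the pathway, of 11 genes of caspases and the apoptosome 3 were up and 6 down at 24 h. At 48 h 0 were up and 1 down, and at 72 h 1 was up and 3 down. Among them CYCS (cytochrome c) had -0.52 ± 0.03 at 24 h, or -0.54 when corrected for length. The caspase inhibitor XIAP had 0.32 ± 0.03 at 24 h, or 0.19 when corrected for length. BIRC3, of the same list, had length-corrected values of 0.16 at 24 h and -0.31 at 72 h. At 48 h CYCS had -0.13 ± 0.03, a call lost without the GFP low library of set 2 (-0.09, adjusted p = 0.0678).

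Among transcription factors known to act on BH3-only genes, FOXO1 and FOXO3, known to act on the BCL2L11 promoter, were up in GFP low cells at all times. FOXO1 had 0.53 ± 0.04, 0.50 ± 0.03 and 0.60 ± 0.04, and FOXO3 had 0.56 ± 0.03, 0.29 ± 0.03 and 0.21 ± 0.03. When corrected for length the values at 24 h were 0.50 for FOXO1 and 0.46 for FOXO3.

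**Figure D5:**
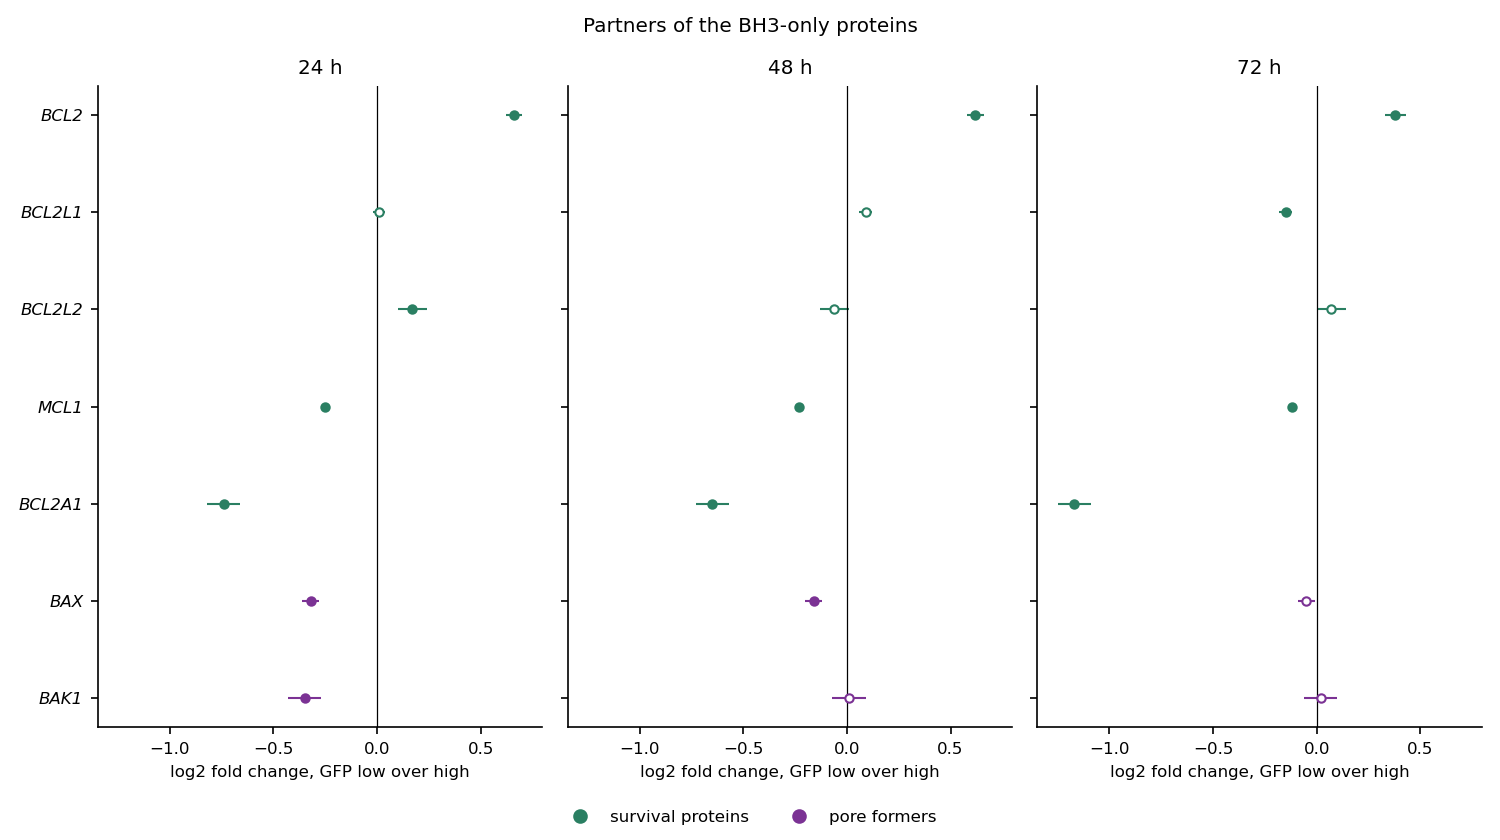
Log2 fold change of GFP low over GFP high cells, with SE, for prosurvival genes and pore formers at 24, 48 and 72 h; open points did not pass the test. BCL2 lies above 0 and MCL1 and BCL2A1 below 0 at all 3 times, while BAX and BAK1 lie below 0 at 24 h (-0.32 and -0.35) and near it at 72 h.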

How the data were processed

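Raji RNA (RNeasy Plus Micro) was sequenced as 18 KAPA RNA HyperPrep RiboErase libraries, 3 in each of 6 groups, per the labels. The authors deposited raw counts, with featureCounts columns per the file headers. The submitters' processing notes name hg38, STAR, Subread, featureCounts, FastQC and R 4.2.1. No source used here gives the annotation release, strand setting or handling of multiply mapped reads. Columns name the group and library set, not the sample. The entry of ANK2, broken over 3 lines, was left out.

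The 16474 genes kept by filterByExpr were TMM-scaled and tested by quasi-likelihood in edgeR 4.0.16 (R 4.3.3), with 6 group means and 12 residual degrees of freedom. P-values were 2-sided and Benjamini-Hochberg adjusted over all tested genes. SE was taken as the size of the log2 fold change divided by the root of F. The fit was tested on simulated counts drawn without library sets or a length trend, so that test covers neither. The biological coefficient of variation was 3.5%, so small differences pass.

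Libraries of a group differed by more than sampling noise (median chi-square 1.46 to 2.75 times that of sampling). The sets, read from the column names, pair the libraries: deviations from the group means had r of 0.103 to 0.309 in the 45 same-set pairs and a median of -0.107 in 90 other pairs.

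Alternatives were RLE size factors, no low-count filter, DESeq2 1.42.0, the set as a block, a length trend removed as offsets, leaving out each library and, chosen after seeing the data, length and GC trends removed. The GC values cover 98.6% of tested genes. The text names all 8 members, SMARCA4, up to 4 genes a list by adjusted p, and the 3 genes most like each member by Pearson's r of log2 CPM (prior count 2). MIR4435-2HG, ACOXL, BMF-AS1 and GPR137 are named because they overlap members, and the markers ITGAM and COL1A1 were chosen after their values were seen. Results for some list genes are not reported here. Members, lists and motifs were chosen with earlier results of these data known.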

Additional observations from a re-analysis of the deposited data

Results flagged for a closer look

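The GFP difference of several members changed with time, by edgeR's test of the change itself with Benjamini-Hochberg adjustment over all genes. Of the GFP low over GFP high log2 fold change, BIK gained 0.85 between 48 and 24 h and 0.86 between 72 and 24 h, PMAIP1 gained 0.38 in both comparisons, BID gained 0.42 and 0.30, and BAD gained 0.47 between 48 and 24 h. BMF changed by -0.25 and -0.40, and BCL2L11 by -0.13 in both. The comparisons share the 24 h libraries. At 24 h the counts also followed gene length, and with the length trend removed the gain by 48 h was 0.53 for BIK, 0.37 for BID and 0.13 for PMAIP1, and by 72 h 0.51, 0.23 and 0.14, each still called. BMF kept its calls (-0.24 and -0.41), BCL2L11 kept that of 72 h (-0.09), and BAD (0.17) and BCL2L11 (-0.05) lost theirs at 48 h. After correction for both length and GC content PMAIP1 no longer passed (0.07 and 0.09), and BAD (0.31) and BCL2L11 (-0.08) did at 48 h.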

How the results depend on the processing

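Of 1296 values for single members under the alternatives, 1221 kept their direction and side of the threshold, 41 lost and 31 gained a call, and 3 turned round: PMAIP1 at 24 h with the length trend removed (0.10) and with length and GC trends removed (0.19), and BAD between 72 and 24 h in GFP low cells with the length trend removed (-0.01). BIK at 24 h no longer passed with the length trend removed (-0.11). The differences of BCL2L11, BMF and HRK between the fractions kept their calls under all 12 alternatives run for each at each time, as did those of PMAIP1, BID and BIK at 48 and 72 h. Of 828 values for 69 results of genes from the lists, 789 kept direction and side and none turned round. With the library set as a replicate block the change of the GFP difference between 72 and 48 h was called for 3331 genes in place of 1486, and for 2 members in place of 0, and 48 against 24 h in GFP high cells for 5394 genes in place of 3388. With length and GC trends removed that change was called for 2428 genes and 3 members. Beside the calls of BAD and BID given above, the block gained BCL2L11 and BID between 48 and 24 h in GFP high cells (-0.05 and -0.09), BCL2L11 between 72 and 48 h in GFP low cells (-0.04), BID between 72 and 48 h (0.08) and BAD between 72 and 24 h (0.19) in GFP high cells, and changed no other member's call. Without the low-count filter 2 members were called between 48 and 24 h in GFP high cells, in place of 4, and BAD was called at 24 and 48 h (-0.24 and 0.25), in the change between 72 and 48 h (-0.40) and between 72 and 24 h in GFP high cells (0.18). With 1 library left out in turn, members called ranged from 1 to 5 between 72 and 48 h in GFP low cells (3491 to 3756 of all genes), from 2 to 4 between 48 and 24 h in GFP high cells (2640 to 2802 genes) and from 2 to 5 between 72 and 48 h in GFP high cells (3628 to 4094 genes). HRK and BBC3, with 41 to 320 counts per library, have the largest errors.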
